A study of Homo sapiens with 18 samples.

Results

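Genes of cholesterol and fatty acid synthesis were followed by RNA sequencing of poly(A) RNA from MDA-MB-231 cells, a mesenchymal-like triple-negative breast cancer line. The list holds 31 of the 60603 genes in the count tables. Its members were listed by gene function, with earlier results of these data known: 7 enzymes of the mevalonate arm, 11 enzymes that turn squalene precursors into cholesterol, 4 regulators, 2 sterol transport genes and 7 enzymes of fatty acid synthesis. All 31 had enough counts to be tested in both systems of the study.

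The study asked how ZMYND8, a chromatin reader protein, and doxorubicin, a DNA-damaging chemotherapy drug, alter transcription. Its transient system had 3 groups of 2 libraries: control cells, cells treated for 48 h with 0.6 µM doxorubicin, and a group whose label states transient Flag-ZMYND8 overexpression with doxorubicin. In the inducible system, 6 groups of 2 libraries held cells carrying GFP or Flag-ZMYND8 in the lentiviral vector pInducer20, without doxorubicin or with 0.6 µM for 6 h or 48 h. All 12 of these libraries came from cells selected with neomycin/G418 and kept in 250 ng/mL doxycycline, so doxycycline was shared by both lines and is not a variable here. Each construct was introduced as 1 stable line. The construct and any other difference between the 2 lines therefore cannot be told apart. Libraries of a group are biological replicates by the labels.

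Cholesterol is built from acetyl-CoA through mevalonate, isoprenoid phosphates and squalene, and fatty acids are built from the same acetyl-CoA pool. Most enzymes of both routes are switched on by SREBP transcription factors, which are made as membrane-bound precursors encoded by SREBF1 and SREBF2. SCAP escorts the precursors from the endoplasmic reticulum to the Golgi for cleavage, and INSIG proteins hold SCAP back when sterols are plentiful. Tumour cells commonly keep these routes active to supply membranes.

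Total counts per library were 18300628 to 23724398 in the inducible system. In the transient system they were 5729294 to 5972396, except for the second doxorubicin library with 24713822. ZMYND8 stood at 209 and 208 CPM (TMM-normalized counts, scaled to a common library size) in the untreated GFP libraries and at 922 and 927 CPM in the untreated ZMYND8 libraries. In the transient system it stood at 219 and 199 CPM in control cells and at 159.8 and 125 CPM in the libraries labelled ZMYND8 plus doxorubicin, which goes against that label. Between the second libraries of the doxorubicin groups of the transient system, chi-square per degree of freedom was 1.39, against 9.71 to 55.6 for the other 14 pairs of that system. The mesenchymal markers VIM (1922 to 4494 CPM), CD44 (420.2 to 1345 CPM), AXL (385 to 1403 CPM) and CAV1 (334 to 907 CPM) were high in every library. The luminal genes ESR1 and PGR stayed below 0.80 CPM, and GATA3 lay between 8.86 and 20.4 CPM. CDH1, also set in advance as absent or low, ran from 0.580 to 21.7 CPM and was highest in ZMYND8 cells after 48 h of doxorubicin. Of the markers of other cell types, ALB did not exceed 0.382 CPM, PTPRC 3.95 CPM and PECAM1 5.59 CPM.

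Promoters are printed here for the 2 largest called falls and the 2 largest called rises in GFP cells after 48 h of doxorubicin among members with a promoter in the table, to show which motif letters lie at their starts. The windows run from 250 bases before to 50 bases after the RefSeq start (GRCh38.p14) and are written 5′ to 3′ on the gene's strand. Capitals mark exact matches, on either strand, to the sterol element TCACNCCAC, the NF-Y box CCAAT or the GC box GGGCGG. The order is ELOVL6 (chr4:110198566-110198865, minus strand), SCD (chr10:100346983-100347282, plus strand), TM7SF2 (chr11:65111622-65111921, plus strand), EBP (chrX:48521558-48521857, plus strand) and SREBF2 (chr22:41832855-41833154, plus strand). SREBF2 was added after the matches were seen.
ELOVL6: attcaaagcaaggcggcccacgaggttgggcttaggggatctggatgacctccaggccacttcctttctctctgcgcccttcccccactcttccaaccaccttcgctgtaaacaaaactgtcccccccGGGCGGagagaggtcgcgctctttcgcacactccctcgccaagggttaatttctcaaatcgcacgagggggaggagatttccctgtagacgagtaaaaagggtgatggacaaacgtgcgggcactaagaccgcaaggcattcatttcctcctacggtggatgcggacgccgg
SCD: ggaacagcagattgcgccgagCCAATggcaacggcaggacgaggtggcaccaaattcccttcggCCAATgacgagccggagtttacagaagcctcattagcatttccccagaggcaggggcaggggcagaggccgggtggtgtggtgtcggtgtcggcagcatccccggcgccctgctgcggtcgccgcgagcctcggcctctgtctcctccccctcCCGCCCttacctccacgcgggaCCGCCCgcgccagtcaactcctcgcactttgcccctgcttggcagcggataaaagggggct
TM7SF2: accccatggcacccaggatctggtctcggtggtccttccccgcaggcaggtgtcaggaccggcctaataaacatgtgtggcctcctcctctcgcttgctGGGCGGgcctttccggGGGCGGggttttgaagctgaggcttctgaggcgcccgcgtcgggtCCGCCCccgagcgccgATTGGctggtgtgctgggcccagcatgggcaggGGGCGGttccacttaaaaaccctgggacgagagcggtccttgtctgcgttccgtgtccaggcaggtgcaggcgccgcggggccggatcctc
EBP: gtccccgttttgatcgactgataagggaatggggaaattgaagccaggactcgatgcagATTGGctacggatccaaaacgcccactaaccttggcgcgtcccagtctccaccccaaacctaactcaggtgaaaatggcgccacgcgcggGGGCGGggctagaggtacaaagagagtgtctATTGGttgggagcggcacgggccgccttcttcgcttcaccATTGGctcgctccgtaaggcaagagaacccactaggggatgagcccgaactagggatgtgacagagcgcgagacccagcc
SREBF2: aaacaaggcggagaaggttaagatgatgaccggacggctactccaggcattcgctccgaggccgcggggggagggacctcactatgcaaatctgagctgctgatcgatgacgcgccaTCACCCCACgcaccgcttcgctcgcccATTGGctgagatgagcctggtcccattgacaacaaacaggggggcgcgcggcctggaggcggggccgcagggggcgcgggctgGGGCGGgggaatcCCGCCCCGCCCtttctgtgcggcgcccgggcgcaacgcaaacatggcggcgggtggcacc

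The sterol element was found at base -133 from the SREBF2 start and in no other of the 27 members with a promoter sequence, against 1.39% of 27305 genes. An NF-Y box was present in 20 of the 27 members, against 39.7% of genes. A GC box was present in 26 of the 27, against 48.3% of genes. ELOVL6, which fell most in GFP cells, held a lone GC box, whereas SCD held 2 NF-Y boxes and 2 GC boxes. TM7SF2 and EBP, which rose, held 1 and 3 NF-Y boxes. In SREBF2 a pair of its 3 GC boxes shares a base. These matches are descriptions of the letters in the window. ACAT2, FDFT1, SQLE and FASN had no promoter sequence in the table.

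Levels of the members differed widely before treatment. Per kilobase of annotated exon, SCD was the highest in untreated GFP cells at 410.3 ± 17 CPM per kb (SD, n = 2), followed by ACLY at 78.3 ± 2.3 CPM per kb, FADS2 at 58.2 ± 1.7 CPM per kb and FASN at 53.6 ± 0.15 CPM per kb. In each library of the pair SCD stood above ACLY, ACLY above FADS2, and FADS2 above FASN. ACACA, which encodes the acetyl-CoA carboxylase that commits carbon to fatty acids, was the lowest at 0.398 ± 0.045 CPM per kb. Its values rest on 1438 counts over the 12 inducible libraries and 284 over the 6 transient libraries. The ACACA libraries agreed less in some other groups, with 13.4 and 3.98 CPM in untreated ZMYND8 cells and 7.82 and 4.28 CPM in GFP cells at 6 h.

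**Figure D1:**
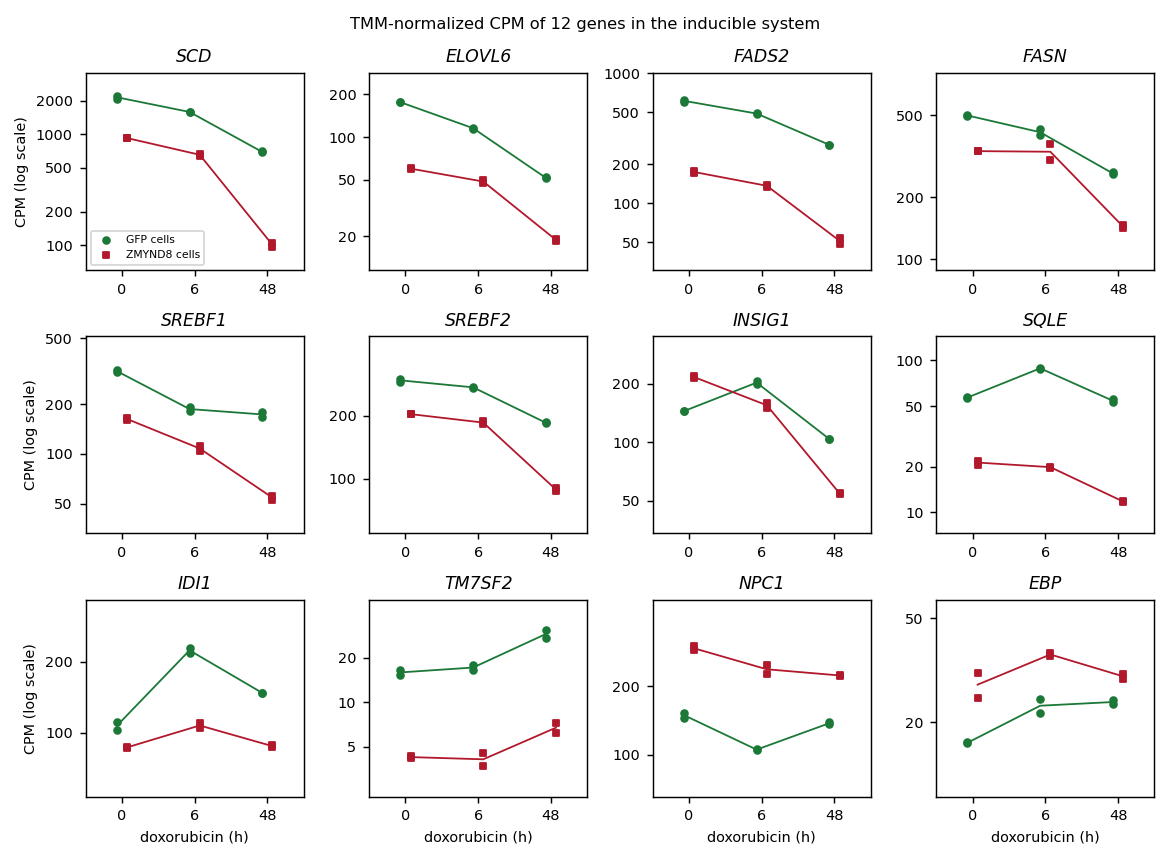
TMM-normalized CPM (log scale) of 12 members in the inducible system against hours of doxorubicin; each point is a library and lines join group means. SCD ends at 95.3 and 105 CPM in ZMYND8 cells after 48 h, below every other library, and INSIG1 and SQLE rise at 6 h in GFP cells but not in ZMYND8 cells.

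Upon 6 h of doxorubicin in GFP cells, genes of sterol synthesis rose while most genes of fatty acid synthesis fell. At an edgeR adjusted p of at most 0.05, 14 of 31 members were higher and 10 were lower, against 22.1% and 25.8% of all 18801 genes tested. The members' median log2 fold change was 0.11, against -0.045 over all genes. In the mevalonate arm 5 of 7 rose and 1 fell, and in the arm from squalene to cholesterol 6 of 11 rose and 1 fell. In fatty acid synthesis 1 of 7 rose and 5 fell.

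IDI1, the isomerase that readies isoprenoid units for condensation, measured 111 and 103 CPM in untreated GFP cells and 218 and 228 CPM at 6 h. The groups did not overlap, and the log2 fold change was 1.06 ± 0.045 (SE; edgeR adjusted p = 1.1e-16). HMGCS1, the synthase that makes HMG-CoA, went from 78.6 and 78.2 to 134 and 131 CPM, a log2 fold change of 0.76 ± 0.049 (edgeR adjusted p = 6.7e-13). Both treated HMGCS1 libraries lay above both untreated libraries. NSDHL, which takes part in removing methyl groups from the sterol ring, rose from 40.8 and 40.5 to 66.8 and 60.2 CPM (0.65 ± 0.062 on the log2 scale). SQLE, the squalene epoxidase, rose from 57.2 and 56.5 to 87.3 and 89.5 CPM (0.64 ± 0.055 on the log2 scale). For both genes the lowest treated library stood above the highest untreated library. INSIG1, which retains SCAP in the endoplasmic reticulum, rose from 144 and 145 to 200.2 and 206 CPM, 1.40-fold.

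SREBF1 and SREBF2 moved the other way at 6 h. SREBF1 fell from 312 and 320.0 to 192 and 181 CPM, a log2 fold change of -0.76 ± 0.046 (edgeR adjusted p = 1.5e-13). Neither treated library reached the lower untreated value. SREBF2 measured 301 and 292 CPM untreated and 276 and 273 CPM treated, a small fall of -0.11 ± 0.038 (edgeR adjusted p = 0.018). That call was lost without the first GFP library (-0.087), without the first 6 h library (-0.12) and without the second 6 h library (-0.10). SCAP did not pass the test (-0.0029 ± 0.043).

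Among fatty acid genes, ELOVL6, which elongates palmitate, fell from 176 and 177 to 115 and 116 CPM (-0.61 ± 0.043 on the log2 scale, edgeR adjusted p = 3.8e-12). SCD, the desaturase that makes oleate, fell from 2090.3 and 2214 to 1597 and 1574 CPM, 1.36-fold lower. The libraries of each gene were apart by more than their spread. FASN, the synthase that makes palmitate, measured 500.5 and 499 CPM before and 428 and 399.8 CPM after treatment (-0.27 ± 0.052 on the log2 scale). ACLY, which makes cytosolic acetyl-CoA, was the member of this arm that rose (0.44 ± 0.043). NPC1, which moves cholesterol out of late endosomes, fell from 146 and 153 to 106 and 105 CPM (-0.50 ± 0.048), whereas the sterol carrier STARD4 rose (0.43 ± 0.055).

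By 48 h in GFP cells, the balance had turned to lower levels. Of 31 members, 8 were higher and 18 lower, against 32.4% and 31.8% of all genes tested. The median was -0.25, against 0.028 over all genes. All 4 regulators fell, as did 4 of 7 fatty acid genes and 6 of 11 genes between squalene and cholesterol, while the mevalonate arm was split into 3 higher and 3 lower. When counts were scaled to library totals in place of TMM factors, the median of all genes moved to 0.27 and the split to 13 higher and 12 lower, against 45.2% and 21.2% of all genes. An exact permutation test of 2 libraries against 2, taken in both directions, cannot go below p = 0.333, so the model fitted across all genes carries the test.

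ELOVL6 fell most, to 51.2 and 52.1 CPM, a log2 fold change of -1.77 ± 0.046 (edgeR adjusted p = 1.1e-21). SCD fell to 699 and 684 CPM (-1.64 ± 0.042), 3.11-fold below untreated cells. FADS2, the desaturase that opens polyunsaturated fatty acid synthesis, fell from 627 and 602 to 283 and 279 CPM (-1.13 ± 0.041). All 3 genes were already lower at 6 h, and for each the 48 h libraries lay below the 6 h libraries. FASN fell to 264 and 258 CPM, 1.91-fold. FADS1, the partner desaturase encoded beside FADS2, did not pass the test (-0.04 ± 0.039).

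MSMO1, a sterol methyl oxidase, fell from 104 and 97.5 to 51.4 and 52.9 CPM (-0.95 ± 0.051). SREBF1 stood at 179.7 and 166 CPM (-0.87 ± 0.046) and SREBF2 at 186 and 185 CPM (-0.68 ± 0.039). Both lay below every untreated GFP library. INSIG1, higher at 6 h, was below its untreated level at 48 h with 104 and 104 CPM (-0.48 ± 0.042). SQLE was back near its untreated level at 52.8 and 55.4 CPM (-0.071 ± 0.057, not called), and its sign turned under library totals (0.17).

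Members that rose at 48 h were led by TM7SF2, a sterol reductase, from 16.6 and 15.2 to 30.9 and 27.00 CPM (0.86 ± 0.10, edgeR adjusted p = 2.9e-08). ACAT2, the thiolase that opens the mevalonate arm, rose from 96.4 and 87.4 to 141 and 145 CPM (0.64 ± 0.051). In both genes the groups were separate. EBP, a sterol isomerase, rose from 16.7 and 16.8 to 23.6 and 24.3 CPM (0.52 ± 0.095). IDI1 was still above its untreated level at 147 and 148 CPM (0.46 ± 0.045), though below its 6 h level. Exons of TM7SF2 overlap VPS51 on the same strand, and those of EBP overlap a further annotated gene, so their reads are less certain. The same holds for FADS2, whose exons overlap FEN1, and for FADS1, whose exons overlap MIR1908. In poly(A) RNA of whole cultures, fewer cells of a type and less RNA per cell cannot be told apart. The share of mitochondrial counts rose with treatment, from 0.893% and 0.947% to 1.66% and 1.70%. CDH1 rose from 0.862 and 0.580 to 10.4 and 11.02 CPM. VIM fell from 4494 and 4468 to 2206 and 2106 CPM, and CD44 from 1238 and 1252 to 686 and 675 CPM. AXL fell from 512 and 517 to 385 and 395 CPM, and CAV1 from 721 and 735 to 334 and 337 CPM. Their part in the member changes was not tested.

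**Figure D2:**
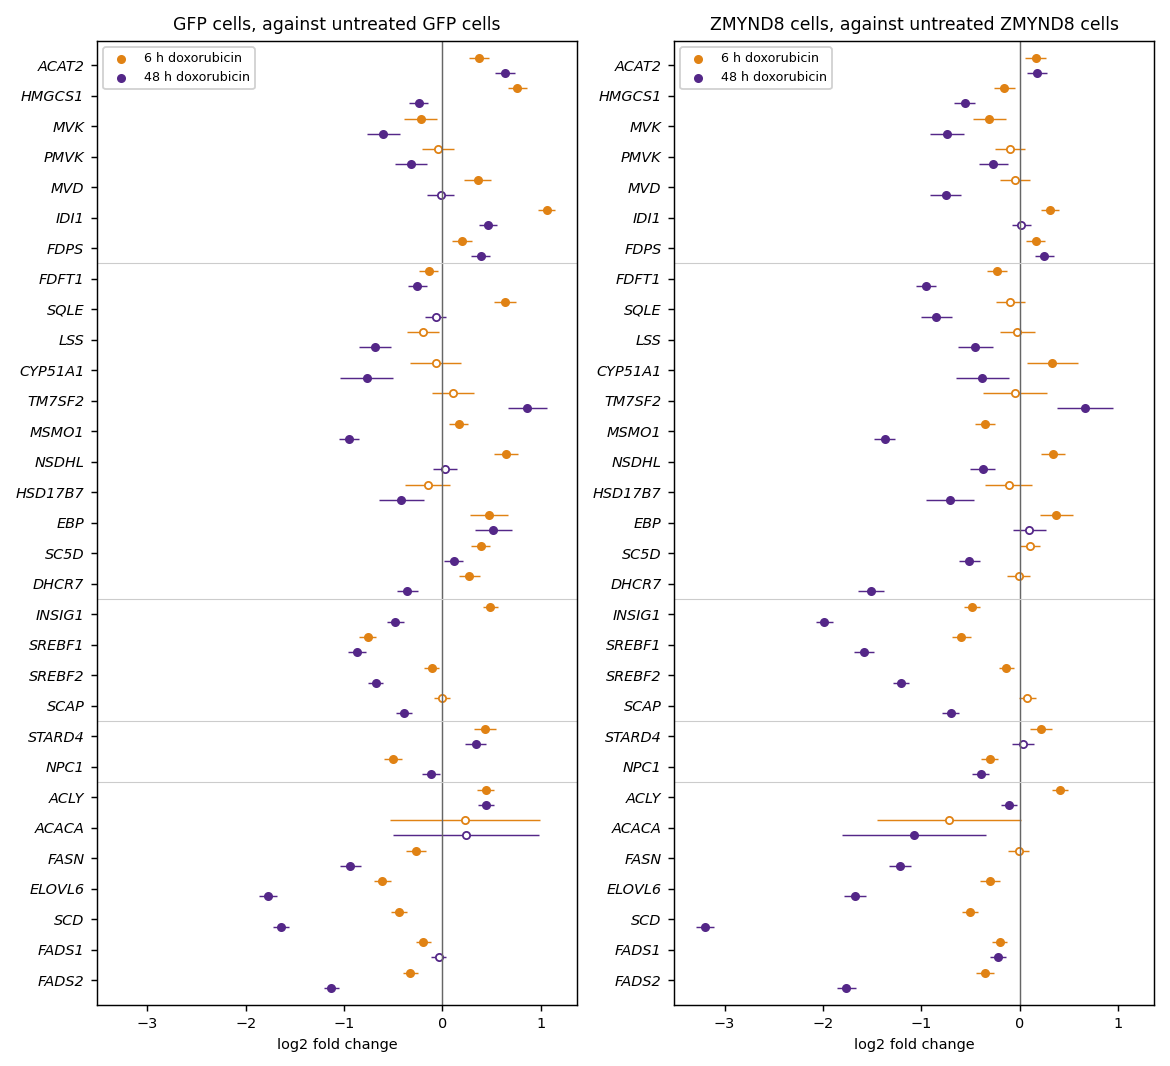
Log2 fold change of all 31 members upon 6 h and 48 h of doxorubicin. GFP cells (left) and ZMYND8 cells (right) are each set against the untreated cells of the same line. Bars are approximate 95% intervals from the SE by a normal quantile, and filled points passed the test. At 48 h 18 members are lower in GFP cells and 25 in ZMYND8 cells, with SCD at -1.64 and -3.20.

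In ZMYND8 cells, 6 h of doxorubicin left 8 of 31 members higher and 12 lower, against 21.8% and 19% of all genes, with a median of -0.096 against -0.0099 over all genes. Under library totals the split was 4 higher and 12 lower, against 16% and 24.3% of all genes. ACLY rose from 329.9 and 333 to 425 and 457 CPM (0.41 ± 0.043). EBP rose from 24.9 and 30.9 to 36.8 and 35.9 CPM (0.37 ± 0.086). Without the first untreated library the EBP change was 0.23 and not called. NSDHL rose from 42.9 and 43.9 to 54.4 and 55.7 CPM (0.34 ± 0.062). CYP51A1, the sterol demethylase, measured 10.3 and 10.02 CPM untreated and 11.9 and 13.7 CPM treated (0.33 ± 0.13, edgeR adjusted p = 0.043). Its call was lost without either untreated library (0.35 and 0.32) and without the second treated library (0.23), and 2 further annotated genes share its exons.

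Falls at 6 h in ZMYND8 cells were led by SREBF1, from 164 and 161 to 103 and 112 CPM (-0.59 ± 0.049). SCD fell from 919 and 927 to 642 and 663 CPM (-0.50 ± 0.041). Neither gene's groups overlapped. INSIG1, which rose in GFP cells at this time, fell here from 219 and 214 to 151 and 159.6 CPM (-0.48 ± 0.04). FADS2 fell from 176 and 172 to 134 and 138 CPM (-0.35 ± 0.045). SREBF2 measured 203 and 205 CPM untreated and 183 and 189 CPM treated (-0.14 ± 0.04), a call lost without the first treated library (-0.11). SQLE did not pass the test at 21.9 and 20.6 and 20.01 and 19.6 CPM (-0.10 ± 0.075). FASN did not pass either: its treated libraries, 304 and 362 CPM, lay on both sides of the untreated 335 and 336 CPM.

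After 48 h in ZMYND8 cells nearly the whole list was lower. Of 31 members, 25 fell and 3 rose, against 30.8% and 31.6% of all genes. The members' median log2 fold change was -0.70, against 0.046 over all genes. All 4 regulators were called lower, as were 7 of 7 fatty acid genes, 9 of 11 genes between squalene and cholesterol and 4 of 7 of the mevalonate arm. Among the fatty acid genes ACACA measured 13.4 and 3.98 CPM untreated and 3.62 and 4.42 CPM at 48 h, with overlapping groups (-1.07 ± 0.37). Without the first untreated library its change was -0.014, and its call was also lost without the first treated library (-0.94) and by DESeq2. The call of ACLY (-0.11 ± 0.043) turned to 0.098 under library totals, was not made with DESeq2 size factors (-0.087) or with at least 10 counts in every library (-0.018), and was lost without the second untreated (-0.11) or either treated library (-0.12 and -0.11). Under library totals the median of all genes was 0.25 and the split 7 higher and 21 lower, against 42.9% and 21.2% of all genes.

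SCD fell from 919 and 927 to 95.3 and 105 CPM, a log2 fold change of -3.20 ± 0.046 or 9.19-fold (edgeR adjusted p = 1.9e-26). INSIG1 fell from 219 and 214 to 54.8 and 54.4 CPM (-1.99 ± 0.044), 3.97-fold. In both genes every treated library lay far below every untreated library. FADS2 fell to 48.6 and 53.6 CPM (-1.76 ± 0.048), and ELOVL6 fell from 59.4 and 60.6 to 19.2 and 18.5 CPM (-1.67 ± 0.058). SREBF1 fell to 52.9 and 55.6 CPM (-1.58 ± 0.052). These 3 changes were of like size on the log2 scale. SREBF2 fell to 87.3 and 89.6 CPM (-1.21 ± 0.041). FASN fell to 142 and 146 CPM (-1.22 ± 0.055), and SQLE to 11.9 and 11.7 CPM (-0.85 ± 0.079).

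The 3 members that rose in ZMYND8 cells at 48 h were TM7SF2, FDPS and ACAT2. TM7SF2 rose from 4.30 and 4.20 to 7.24 and 6.21 CPM (0.66 ± 0.15). FDPS, which makes farnesyl diphosphate, rose from 128 and 139 to 165 and 152 CPM (0.25 ± 0.049). ACAT2 rose from 74.1 and 72.4 to 85.4 and 79.9 CPM (0.17 ± 0.054), a call lost without the second untreated library (0.15) or the first treated library (0.12). The mitochondrial share was 1.29% and 1.96% untreated and 3.01% and 2.73% at 48 h. CDH1 went from 3.46 and 4.86 to 20.1 and 21.7 CPM. VIM fell from 3829 and 4175 to 2639 and 2535 CPM, and CD44 from 642 and 679 to 539 and 512 CPM. AXL fell from 981 and 1039 to 594 and 578 CPM, and CAV1 from 688 and 721 to 381 and 368 CPM. Their part was not tested.

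The response to doxorubicin was then compared between the lines with an interaction term, the log2 fold change in ZMYND8 cells minus that in GFP cells. At 6 h, 3 of 31 members had a higher response in ZMYND8 cells and 9 a lower response, against 7.86% and 5.52% of all genes. Under library totals these were 1 and 11, against 4.37% and 9.2% of all genes. INSIG1 differed most (-0.97 ± 0.058, edgeR adjusted p = 1.3e-11), followed by HMGCS1 (-0.91 ± 0.074), IDI1 (-0.75 ± 0.066) and SQLE (-0.73 ± 0.093). Each of these 4 genes rose in GFP cells at 6 h. HMGCS1 went from 56.3 and 59.3 to 52.00 and 52.00 CPM in ZMYND8 cells, and IDI1 from 85.9 and 87.4 to 110.1 and 105 CPM. Their neighbours in the mevalonate arm, MVD (-0.41 ± 0.11) and ACAT2 (-0.21 ± 0.075), had smaller differences, of which the MVD difference passed the test. In the other direction stood ELOVL6 (0.31 ± 0.068), FASN (0.26 ± 0.075) and NPC1 (0.20 ± 0.065). The FASN difference lost its call without the first GFP library (0.26), the second GFP 6 h library (0.21) or the second ZMYND8 6 h library (0.13). The NPC1 difference lost its call without the second GFP (0.16), either GFP 6 h (0.20 and 0.19), the first ZMYND8 (0.16) or the second ZMYND8 6 h library (0.12).

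At 48 h, 22 of 31 members had a more negative response in ZMYND8 cells and 0 a more positive one, against 15.8% and 12.7% of all genes. At an unadjusted p of at most 0.05, 23 members differed by edgeR, against 37.5% of all genes. The median of the interaction was -0.42 over the members and -0.0074 over all genes. SCD differed most (-1.56 ± 0.06, edgeR adjusted p = 3.9e-16), so that its fall was 2.95-fold deeper in ZMYND8 cells. INSIG1 differed by -1.51 ± 0.061. DHCR7, the reductase of the final step of cholesterol synthesis, went from 99.00 and 97.9 to 79.8 and 73.98 CPM in GFP cells and from 64.9 and 70.5 to 23.5 and 24.03 CPM in ZMYND8 cells. Its interaction was -1.16 ± 0.088. SQLE differed by -0.78 ± 0.097, SREBF1 by -0.71 ± 0.069 and SREBF2 by -0.53 ± 0.057. ELOVL6, the gene that fell most in GFP cells, did not pass this test. Its difference was 0.10 ± 0.076, with an approximate 95% interval (normal quantile) of -0.047 to 0.25.

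**Figure D3:**
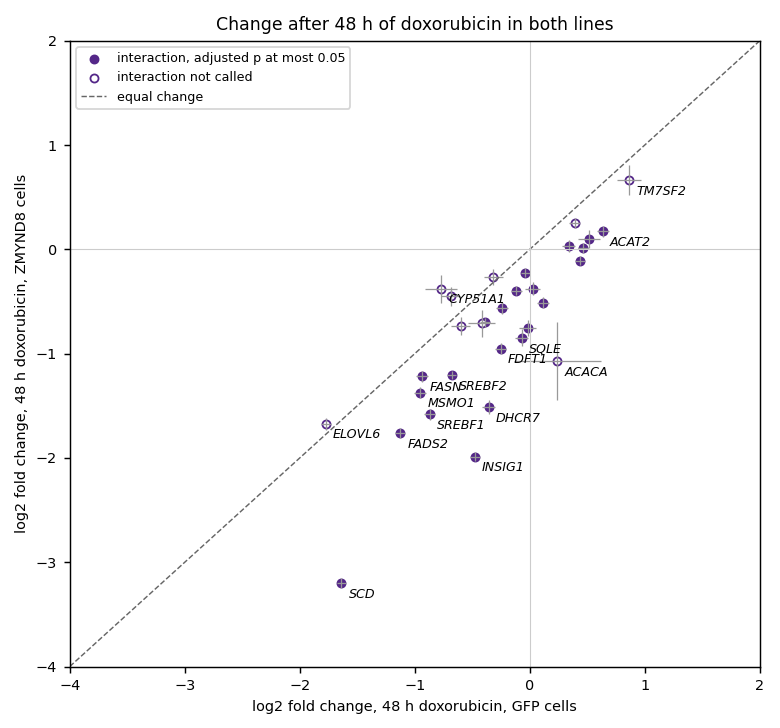
Log2 fold change of each member after 48 h of doxorubicin in GFP cells (x axis) and ZMYND8 cells (y axis), with SE bars; the dashed line marks an equal change. Filled points passed the interaction test, and all 22 of them lie below the line.

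Before any doxorubicin the lines already differed. In ZMYND8 cells 22 of 31 members were lower and 4 higher than in GFP cells, against 29.5% and 28.7% of all genes. The members' median log2 difference was -0.33, against 0 over all genes. Enzymes of fatty acid synthesis were lower in 6 of 7 cases, and the exception, ACACA, did not pass the test.

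TM7SF2 differed most, with 16.6 and 15.2 CPM in GFP cells and 4.30 and 4.20 CPM in ZMYND8 cells, a log2 difference of -1.90 ± 0.13 (edgeR adjusted p = 1.4e-12). FADS2 measured 627 and 602 CPM against 176 and 172 CPM (-1.82 ± 0.043). ELOVL6 measured 176 and 177 CPM against 59.4 and 60.6 CPM (-1.56 ± 0.046). In each of the 3 genes the lines were apart by more than the spread of their libraries. SQLE was at 57.2 and 56.5 CPM against 21.9 and 20.6 CPM (-1.42 ± 0.065), and SCD at 2090.3 and 2214 CPM against 919 and 927 CPM (-1.22 ± 0.041). SREBF1 differed by -0.96 ± 0.046, SREBF2 by -0.54 ± 0.039 and FASN by -0.58 ± 0.053. All of these were lower in ZMYND8 cells.

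Higher in ZMYND8 cells were NPC1, at 146 and 153 CPM in GFP cells and 287 and 299.7 CPM in ZMYND8 cells (0.97 ± 0.045), and EBP, at 16.7 and 16.8 and 24.9 and 30.9 CPM (0.75 ± 0.095). INSIG1 was higher by 0.58 ± 0.041, with 144 and 145 against 219 and 214 CPM. PMVK, the phosphomevalonate kinase, stood at 31.4 and 28.5 against 35.96 and 36.4 CPM (0.27 ± 0.079), a call lost without the second GFP library (0.21). The order of these 4 genes by difference is NPC1, EBP, INSIG1 and PMVK. Mitochondrial shares were 0.893% and 0.947% in GFP cells against 1.29% and 1.96% in ZMYND8 cells. Of the cell-state markers, CDH1 stood at 0.862 and 0.580 CPM in GFP cells and 3.46 and 4.86 CPM in ZMYND8 cells, CD44 at 1238 and 1252 against 642 and 679 CPM, and AXL at 512 and 517 against 981 and 1039 CPM. VIM stood at 4494 and 4468 against 3829 and 4175 CPM, and CAV1 at 721 and 735 against 688 and 721 CPM. The part of these values in the member differences was not tested.

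After 6 h of doxorubicin 24 members were lower and 3 higher in ZMYND8 cells than in GFP cells, against 26.6% and 28.9% of all genes, with a median of -0.54 against 0.00012. SQLE differed most, with 87.3 and 89.5 CPM against 20.01 and 19.6 CPM (-2.16 ± 0.064, 4.46-fold). TM7SF2 (-2.06 ± 0.13), FADS2 (-1.85 ± 0.044) and HMGCS1 (-1.35 ± 0.052) followed. TM7SF2 stood at 17.9 and 16.4 against 4.53 and 3.68 CPM, and HMGCS1 at 134 and 131 against 52.00 and 52.00 CPM. The 3 higher members were NPC1 (1.17 ± 0.047), EBP (0.65 ± 0.089) and PMVK (0.22 ± 0.081). NPC1 stood at 106 and 105 CPM against 226 and 249 CPM. The PMVK call was lost without the second GFP library (0.15) or the first ZMYND8 library (0.13) at 6 h.

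After 48 h, 26 members were lower and 3 higher in ZMYND8 cells, against 31.6% and 28.4% of all genes. The members' median was -0.79, against -0.036 over all genes. SCD measured 699 and 684 CPM against 95.3 and 105 CPM (-2.78 ± 0.046), 6.89-fold lower, and FADS2 283 and 279 against 48.6 and 53.6 CPM (-2.46 ± 0.048). SQLE differed by -2.20 ± 0.069 and TM7SF2 by -2.10 ± 0.11. The 3 higher members were again NPC1 (0.70 ± 0.045), EBP (0.33 ± 0.086) and PMVK (0.32 ± 0.08). CYP51A1 and ACACA did not pass the test. The 3 comparisons of the lines use separate libraries at each time but the same 2 lines in the same fit. They are therefore not independent repeats of a line difference. At 48 h the mitochondrial share was 1.66% and 1.70% in GFP cells and 3.01% and 2.73% in ZMYND8 cells. CDH1 stood at 10.4 and 11.02 CPM in GFP cells against 20.1 and 21.7 CPM in ZMYND8 cells. CD44 stood at 686 and 675 against 539 and 512 CPM, and AXL at 385 and 395 against 594 and 578 CPM. VIM, at 2206 and 2106 against 2639 and 2535 CPM, and CAV1, at 334 and 337 against 381 and 368 CPM, were higher in ZMYND8 cells. Their part was not tested.

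**Figure D4:**
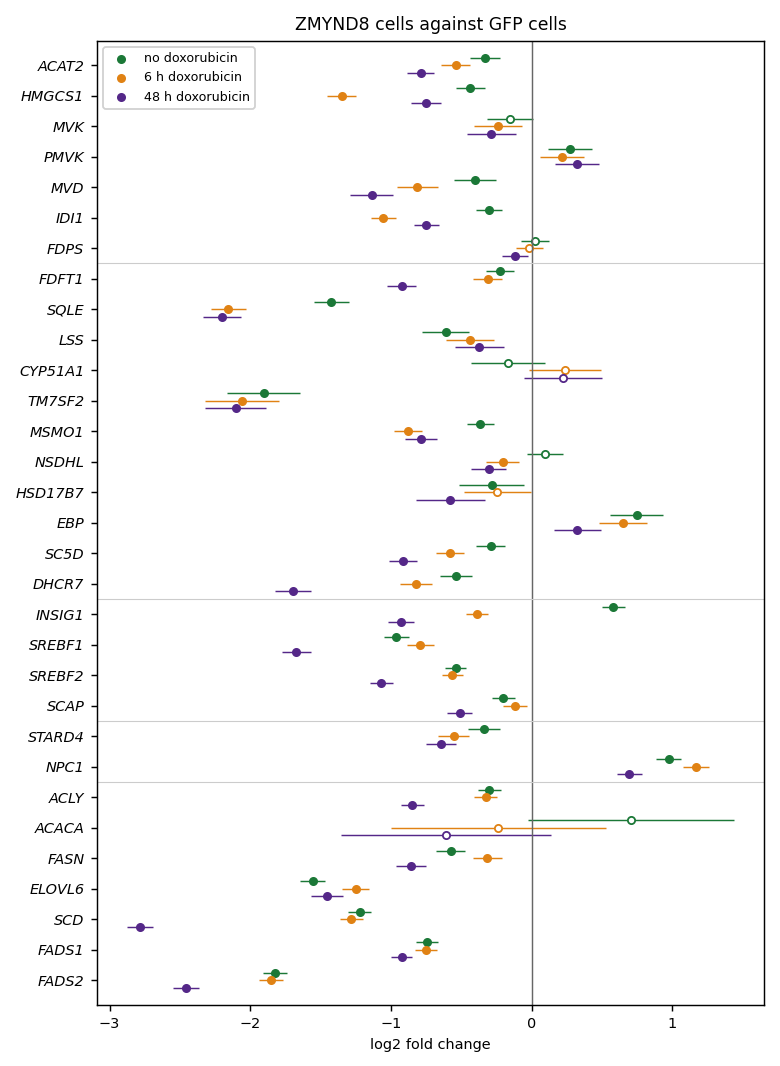
Log2 difference between ZMYND8 and GFP cells for all 31 members without doxorubicin and after 6 h and 48 h. Bars are approximate 95% intervals from the SE by a normal quantile, and filled points passed the test. SCD moves from -1.22 to -2.78 between 0 h and 48 h, while NPC1, EBP and PMVK lie to the right of 0 at all 3 times.

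Changes in the transient system were smaller against their error. Upon 48 h of doxorubicin 0 of 31 members were called higher or lower by edgeR, against 2.98% and 2.15% of 15697 genes. At an unadjusted p of at most 0.05, 4 members differed by edgeR, against 22.2% of all genes, and DESeq2 called 1, against 7.5% of all genes. The members' median was -0.28, against -0.00038 over all genes. Under library totals the median of all genes was 0.15 and that of the members -0.14. Mitochondrial shares were 7.37% and 3.79% in control cells and 6.76% and 4.34% upon doxorubicin, so the libraries of a group differed more than the groups, and their part was not tested. Genes lying within the exons of an expressed gene on the other strand had a median read density 1.5 to 1.7 times that of the expressed gene, against 0.0631 to 0.104 times in the inducible system. Of the members, 15 have exon bases under a gene on the other strand, and their transient values are uncertain. The share was largest in ACAT2, HMGCS1, FDPS and IDI1, at 52.3%, 37.7%, 18.6% and 14.8%. FADS1 and FADS2 lie under each other, with 4.8% and 4.6% of their exon bases.

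SCD measured 2092 and 3018 CPM in control cells and 1219 and 1273 CPM upon doxorubicin. The groups did not overlap, and the log2 fold change was -1.04 ± 0.27 (edgeR adjusted p = 0.052). It was called by DESeq2 (adjusted p = 0.003), without a count filter (edgeR adjusted p = 0.00055) and without the first control library (-1.29, edgeR adjusted p = 0.033). FASN measured 1307 and 1725 and 1037 and 1224 CPM (-0.42 ± 0.22). SREBF1 measured 315 and 339 and 188 and 265 CPM (-0.53 ± 0.22). SREBF2 measured 385 and 342 and 319 and 258 CPM (-0.34 ± 0.21). None of the 3 passed the test, although neither group overlapped the other. INSIG1 at 285 and 400.2 and 272 and 294 CPM (-0.28 ± 0.22) and SQLE at 46.7 and 73.9 and 48.6 and 44.4 CPM (-0.38 ± 0.24) had overlapping groups. With the replicate number as a block, 2 members were called, SCD (edgeR adjusted p = 0.0028) and SREBF1 (edgeR adjusted p = 0.042), against 15.4% over the whole table.

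In the libraries labelled ZMYND8 plus doxorubicin, 2 of 31 members were lower than in control cells and 0 higher, against 2.97% and 3.85% of all genes. The median was -0.28, against 0.0027 over all genes. SCD stood at 800.5 and 1259 CPM (-1.31 ± 0.27, edgeR adjusted p = 0.02). ELOVL6 went from 151 and 168 to 83.9 and 80.6 CPM (-0.96 ± 0.25, edgeR adjusted p = 0.043). Both genes lay below both control libraries. The SCD call was lost without the second control library (-1.03) or the first library labelled ZMYND8 plus doxorubicin (-1.03), and it held without the second of each doxorubicin group (-1.69, edgeR adjusted p = 0.013). The ELOVL6 call was lost without any of the 4 libraries (-0.88 to -1.05) and without both second libraries (-0.95). Without the first control library SQLE (-0.95) and HMGCS1 (-1.12) were called with SCD, which makes 3, against 4.49% of all genes. A block on the replicate number gave 4 called members, against 17.8% over the whole table: SCD, ELOVL6, MSMO1 and HSD17B7. This blocked fit, used above for doxorubicin as well, counts the nearly alike second libraries of the 2 doxorubicin groups as separate.

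The remaining members named by rule did not pass: SREBF1 (-0.32 ± 0.22), SREBF2 (-0.36 ± 0.21), INSIG1 (-0.38 ± 0.22), SQLE (-0.64 ± 0.25) and FASN (-0.34 ± 0.22). Between the 2 doxorubicin groups 0 of 31 members were called by edgeR or DESeq2 in either direction, against 0% of all genes higher and 0% lower. At an unadjusted p of at most 0.05, 0 members differed, against 0.344% of all genes. ELOVL6 had the largest difference, -0.46 ± 0.25 with an approximate 95% interval (normal quantile) of -0.94 to 0.017. ZMYND8 itself stood at 182 and 123 CPM in the first of these groups and 159.8 and 125 CPM in the labelled group, and their second libraries were nearly alike. Both doxorubicin groups share their control libraries, so their values are given side by side and not as separate evidence.

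**Figure D5:**
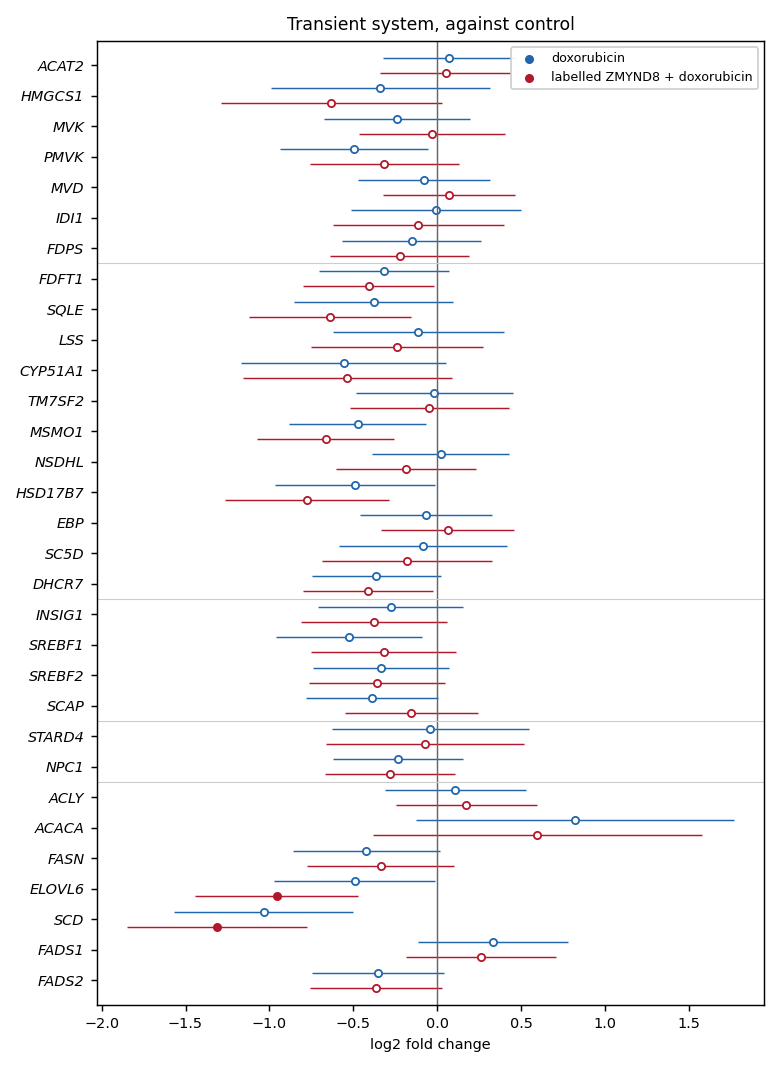
Log2 fold change of all 31 members in the transient system for doxorubicin and for the libraries labelled ZMYND8 plus doxorubicin. Both are set against the same 2 control libraries. Bars are approximate 95% intervals from the SE by a normal quantile, and filled points passed the test. Only SCD (-1.31) and ELOVL6 (-0.96) in the labelled ZMYND8 group are filled.

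A wider list of 56 genes of sterol control, efflux, esterification and fatty acid handling was examined beside the members. In GFP cells 15 of 54 tested rose and 18 fell at 6 h, against 22.1% and 25.8% of all genes, and 17 rose and 29 fell at 48 h, against 32.4% and 31.8%. In ZMYND8 cells 24 rose and 15 fell at 6 h, against 21.8% and 19% of all genes, and 12 rose and 31 fell at 48 h, against 31.6% and 30.8%. ZMYND8 cells were lower than GFP cells in 31 of the 54 and higher in 17 before treatment, against 29.5% and 28.7% of all genes. ME1, the malic enzyme that supplies NADPH for fatty acid synthesis, also fell: it went from 49.8 and 49.9 to 14.1 and 12.2 CPM in GFP cells (-1.93 ± 0.081) and from 35.96 and 39.9 to 9.80 and 10.1 CPM in ZMYND8 cells (-1.94 ± 0.086). Transient cells given doxorubicin had lower ME1, which fell from 74.99 and 74.3 to 39.6 and 37.5 CPM (-0.96 ± 0.21), a call lost without the first control library (-0.97) or either doxorubicin library (-0.998 and -0.913).

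The efflux genes ABCA1 and ABCG1 were lower at 6 h in both lines. In GFP cells ABCA1, the transporter that loads cholesterol onto apolipoprotein, went from 137 and 141 to 55.6 and 51.5 CPM at 6 h (-1.38 ± 0.058). ABCG1, a partner transporter, went from 11.96 and 13.4 to 2.52 and 1.61 CPM (-2.61 ± 0.20). Both lay well below every untreated GFP library. At 48 h in GFP cells ABCA1 stood at 52.5 and 53.0 CPM and ABCG1 at 7.90 and 8.75 CPM. In ZMYND8 cells ABCA1 went from 73.8 and 63.5 to 43.5 and 44.2 CPM at 6 h, and ABCG1 from 2.01 and 2.10 to 0.296 and 0.420 CPM. CH25H, which makes an oxysterol that holds SREBP precursors back, was at 0.760 and 1.05 CPM in untreated GFP cells and 18.4 and 17.8 CPM in untreated ZMYND8 cells (4.31 ± 0.16). At 48 h it reached 4.57 and 5.05 CPM in GFP cells and 37.8 and 39.9 CPM in ZMYND8 cells, higher in both (2.40 ± 0.20 and 1.10 ± 0.088). Among transient libraries CH25H measured 1.53 and 0.870 CPM in control cells, 2.78 and 17.01 CPM upon doxorubicin (3.16 ± 0.76) and 24.9 and 17.9 CPM in the labelled ZMYND8 group (4.15 ± 0.75). The doxorubicin value was 1.21 and not called without the second doxorubicin library, and the call was also lost without either control library (3.60 and 2.81). The labelled ZMYND8 value lost its call without its first library (3.89).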

How the data were processed

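Poly(A) RNA of 18 libraries was sequenced by the submitters, 6 of the transient and 12 of the inducible system. The deposited values are whole-number counts per gene, which per the file headers were made by the authors with featureCounts 1.6.4 on GENCODE 31, paired reads, strand-specific and without multi-mapping reads. The submitters' processing notes name Trim Galore, HISAT2, featureCounts and DESeq2 with the hg38 build, whereas the study's methods name TopHat and cuffdiff, so the aligner is uncertain.

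Each system was fitted separately with edgeR 4.0.16 in R 4.3.3 (TMM factors, default filter on low counts, quasi-likelihood test, one mean per group). The Benjamini-Hochberg adjustment covered every tested gene (15697 transient, 18801 inducible). A call is an adjusted p of at most 0.05 at any fold. Standard errors were obtained as the log2 fold change over the root of the F statistic. CPM values are TMM-normalized. The script was tested on simulated counts.

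The members and gene lists were chosen with earlier results of these data known. Genes given by value are up to 4 called rises and 4 called falls per comparison, plus SREBF1, SREBF2, INSIG1, SQLE, FASN and SCD in the doxorubicin comparisons and the untreated comparison of the lines, and of the wider list up to 3 per direction. A gene of the wider list that this rule names is not reported here by name, although the counts over that list include it. Promoter sequences are from RefSeq (GRCh38.p14), with 27 of 31 members matched by symbol.

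Replicate numbers are shared by the groups. Deviations of same-numbered libraries correlated at 0.195 to 0.45 across 12322 genes in the transient system and at -0.165 to 0.0595 in the inducible system. The transient values are a hint from the data and not from the labels. One of them, 0.442, is between the 2 doxorubicin groups, whose second libraries were nearly alike. Alternatives were DESeq2 1.42.0, other scalings, count filters and call rules, the fit with the replicate number as a block, fewer groups in the fit, and each library left out in turn. With 2 libraries a group, the lone library left in a group is assumed to vary like the others.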

Additional observations from a re-analysis of the deposited data

Results flagged for a closer look

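Several members responded differently to doxorubicin in the 2 inducible lines, by the edgeR interaction term (ZMYND8 cells minus GFP cells, log2 scale). At 6 h the response was lower in ZMYND8 cells for INSIG1 (-0.97), HMGCS1 (-0.91), IDI1 (-0.75) and SQLE (-0.73), and higher for ELOVL6 (0.31), FASN (0.26) and NPC1 (0.20). At 48 h it was lower for SCD (-1.56), INSIG1 (-1.51), DHCR7 (-1.16) and SQLE (-0.78).

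In the wider list the 6 h response was higher in ZMYND8 cells for ABCA1 (0.73), ACSL1 (0.54) and INSIG2 (0.46) and lower for DHDDS (-0.34) and ACSL3 (-0.21). At 48 h it was higher for NR1H3 (0.72), MID1IP1 (0.64) and ERLIN2 (0.61) and lower for CH25H (-1.30), SOAT1 (-0.77) and FADS3 (-0.74). The DHDDS call was lost without the first ZMYND8 library (-0.31), and the ACSL3 call without the second GFP library (-0.20), the second GFP library at 6 h (-0.19) or the second ZMYND8 library at 6 h (-0.16).

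FADS1 had log2 fold changes of opposite sign after 48 h of doxorubicin with TMM factors, 0.33 in transient cells and -0.04 in GFP cells, with groups that did not overlap in either. The sign in GFP cells depends on the scaling: it was 0.21 under library totals and -0.00082 with DESeq2 size factors, while the transient value was 0.47 and 0.32. Neither change passed its own test with TMM factors, and the difference between the systems was not tested. FADS1 has 4.8% of its exon bases under FADS2 on the other strand, so its transient value is uncertain.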

How the results depend on the processing

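Of 1789 alternative values for 154 gene results, 1708 kept their direction and side of the threshold, 70 lost their call, 7 gained one and 4 turned sign. Those 4 were SQLE at 48 h in GFP cells under library totals (0.17) and with at least 10 counts in every library (0.0050), and FASN at 6 h in ZMYND8 cells without a count filter (0.0035) and without the first treated library (0.11). Without the second treated library FASN was called at -0.14. Scaling to library totals also turned the called HMGCS1 (0.0019) and NPC1 (0.13) at 48 h in GFP cells and ACLY (0.098) at 48 h in ZMYND8 cells. The cause was not tested.

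The study's fold cut-off was applied at an adjusted or unadjusted p. At either p, called members numbered 0 and 2 in GFP cells at 6 h and 48 h, and 0 and 6 in ZMYND8 cells. They numbered 3, 3 and 6 between the lines at 0, 6 and 48 h, and 0 and 2 for the interactions. At an adjusted p this cut-off called 767 and 2435 of all 18801 genes in GFP cells and 373 and 2258 in ZMYND8 cells. Between the lines it called 2028, 1873 and 1742 genes, and for the interactions 100 and 423. In the transient system this cut-off gave 1 for doxorubicin (unadjusted p), against 1366 of 15697 genes. It gave 1 for the labelled ZMYND8 group (both p), against 821 genes at the adjusted and 1544 at the unadjusted p. Doxorubicin there gave 1 by DESeq2, against 1177 of 15697 genes, and 1 without a count filter, against 1505 of 37454. The labelled ZMYND8 group gave 1 under library totals, against 1235 of 15697 genes, and SCD stood at -1.69 without both second libraries. With the replicate block these became 2 and 4, against 0 and 2 without it, and the inducible counts stayed within 1.5 times.

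Leaving out each library in turn gave 0 to 1 (doxorubicin), 0 to 3 (labelled ZMYND8 group) and 0 to 0 (between them) in the transient system. In the inducible system it gave 21 to 23 and 24 to 25 in GFP cells at 6 and 48 h, 16 to 19 and 24 to 27 in ZMYND8 cells, 24 to 26, 25 to 27 and 27 to 29 between the lines, and 9 to 13 and 21 to 23 for the interactions. Calls over all genes also changed when a library was left out, so these ranges alone do not tell members from other genes. The effect of depth was not tested.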
